A study of Mus musculus with 12 samples.

Results

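The enzymes of phase II conjugation were followed across freshly isolated crypts and cultured monolayers of the mouse small intestine (SI) and large intestine (LI). Members were all genes whose mouse symbol starts with Ugt1a, Ugt2a, Ugt2b, Ugt3a, Sult, Gsta, Gstk, Gstm, Gsto, Gstp, Gstt, Gstz or Mgst, with 8 pseudogenes left out by their names. This gave 67 of 55487 genes, of which 21 are UDP-glucuronosyltransferases (UGTs), 21 sulfotransferases (SULTs), 22 soluble glutathione transferases (GSTs) and 3 membrane-bound Mgst enzymes. RNA was sequenced from 4 groups of 3 libraries each. SI crypts and LI crypts were freshly isolated from C57BL/6 mice, each library from 1 mouse. For the monolayers, the methods take the large intestine from the mice that gave the small intestine. Whether SI and LI crypt libraries also share mice is not stated, and the regions were tested as unpaired. Crypts are what the sample titles and the methods name, whereas another sample label reads in vivo tissue and a caption of the study speaks of harvested intestines, so that the purity of these libraries is not settled by the sources. In SI crypts the 12 immune markers summed to 531 to 693 CPM (counts scaled to the library total) and the 10 mesenchymal markers to at most 48.5 CPM, and in LI crypts to at most 63.7 and 70.7 CPM. Monolayers of both regions were crypts of the same strain grown for 24 h in control medium, with pooled wells per library. According to the study's methods, the mice were young adults of either sex and the SI monolayers came from jejunum. The control medium held Wnt3a, EGF, Noggin and R-spondin-1. Before it, crypts of both regions were seeded for some hours in a medium with inhibitors of GSK3, BMP receptors and ROCK. The ROCK inhibitor was also present while LI tissue was digested. Effects of seeding and of control medium cannot be told apart. The methods also state that SI epithelium was released with EDTA, whereas LI tissue was first digested with collagenase and dispase, so that region and isolation method cannot be told apart. The sources used here do not tie a monolayer library to a particular mouse, and p-values therefore measure the spread between these libraries.

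Conjugating enzymes attach a polar group to drugs, hormones, bile acids and reactive metabolites, which makes them easier to excrete. UGTs transfer glucuronic acid from UDP-glucuronic acid in the endoplasmic reticulum, SULTs transfer sulfate from the donor PAPS in the cytosol, and GSTs attach glutathione to electrophiles, including products of lipid peroxidation. In the intestinal epithelium these enzymes form part of first-pass metabolism, and the conjugates leave the cell through efflux transporters of the Abcc family and Abcg2. Glucuronidation by Ugt1a enzymes is known to inactivate, among other drugs, the active metabolite of irinotecan.

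Library totals lay between 59016196 and 76216530 counts, and 3 counts, taken as the limit that a count of 0 allows, equalled 0.0391 to 0.0525 CPM. Epithelial markers (Epcam, Cdh1, keratins and others, 7 genes) summed to at least 11032 CPM in every library and none of them was at 0 in any group. Regional markers followed the labels in crypts and in monolayers: 5 of 6 SI markers were higher and 4 of 5 tested LI markers lower in SI than in LI. Of all genes, 11.6% were higher and 11.1% lower in SI crypts, and 12.4% and 8.88% in SI monolayers. In bulk RNA, fewer cells of a type and less RNA per cell cannot be told apart. Differences between groups are log2 fold changes with standard errors (SE) from edgeR's quasi-likelihood test over 19581 genes, and a gene was called when its Benjamini-Hochberg adjusted p was under 0.05 and its log2 fold change was 1 or more in size. Values per library are the authors' normalized counts, the counts divided by 1 size factor per library.

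Of the 67 enzyme genes, 45 passed the filter on low counts, 8 had some counts but did not pass (Gstt4, Sult1c1, Sult5a1, Ugt1a2, Ugt1a5, Ugt1a10, Ugt2a1 and Ugt2b37), and 14 had no count in any of the 12 libraries. The genes without a count were Sult1e1, known for sulfating oestrogen, the 8 Sult2a genes, which are hydroxysteroid sulfotransferases, and Sult3a1, Sult3a2, Ugt2a2, Ugt3a1 and Ugt3a2. Ugt2a2 shares 94.5% of its annotated exon length with other genes and Ugt2a1 98.8%, and how reads in shared exons were assigned is not given in the sources used here.

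To compare levels between genes, counts were divided by the length of the merged exons (given as RPKM). The summed RPKM level of all members was 1954 ± 211 in SI crypts (SD, n = 3), 4269 ± 17.1 in SI monolayers, 2261 ± 120.0 in LI crypts and 1205 ± 10.1 in LI monolayers. The sum was thus higher in SI monolayers than in SI crypts and lower in LI monolayers than in LI crypts, with no overlap between libraries in either pair. Their share of all counts lay at 0.364% to 0.413% in SI crypts, 0.658% to 0.667% in SI monolayers, 0.414% to 0.445% in LI crypts and 0.188% to 0.190% in LI monolayers.

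The families did not move together. Summed RPKM of the 4 alpha class genes (Gsta) was 50.7 ± 20.7 in SI crypts, 1699 ± 3.75 in SI monolayers, 53.2 ± 2.44 in LI crypts and 306 ± 15.0 in LI monolayers. The 7 mu class genes (Gstm) summed to 245 ± 60.4 and 1273 ± 22.5 RPKM in SI crypts and monolayers, but to 266 ± 31.7 and 33.8 ± 2.64 in LI crypts and monolayers. Alpha class sums were higher in monolayers of both regions, while mu class sums were higher in SI monolayers and lower in LI monolayers than in the crypts of the same region. UGTs summed to 246 ± 37.3 RPKM in SI crypts and 215 ± 6.96 in SI monolayers, groups whose ranges overlapped, and to 171 ± 18.8 and 35.2 ± 1.41 in LI crypts and LI monolayers. The SULT sum was 237 ± 31.1 RPKM in SI crypts and 107 ± 9.81 in SI monolayers, and 424 ± 14.7 and 58.2 ± 3.05 in LI crypts and LI monolayers. It was carried by the Sult1 genes, and the other SULTs together were higher in LI monolayers (17.2 ± 0.92 RPKM) than in LI crypts (10.3 ± 0.65), and in SI had 38.7 ± 6.97 in crypts and 26.2 ± 0.26 in monolayers.

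**Figure D1:**
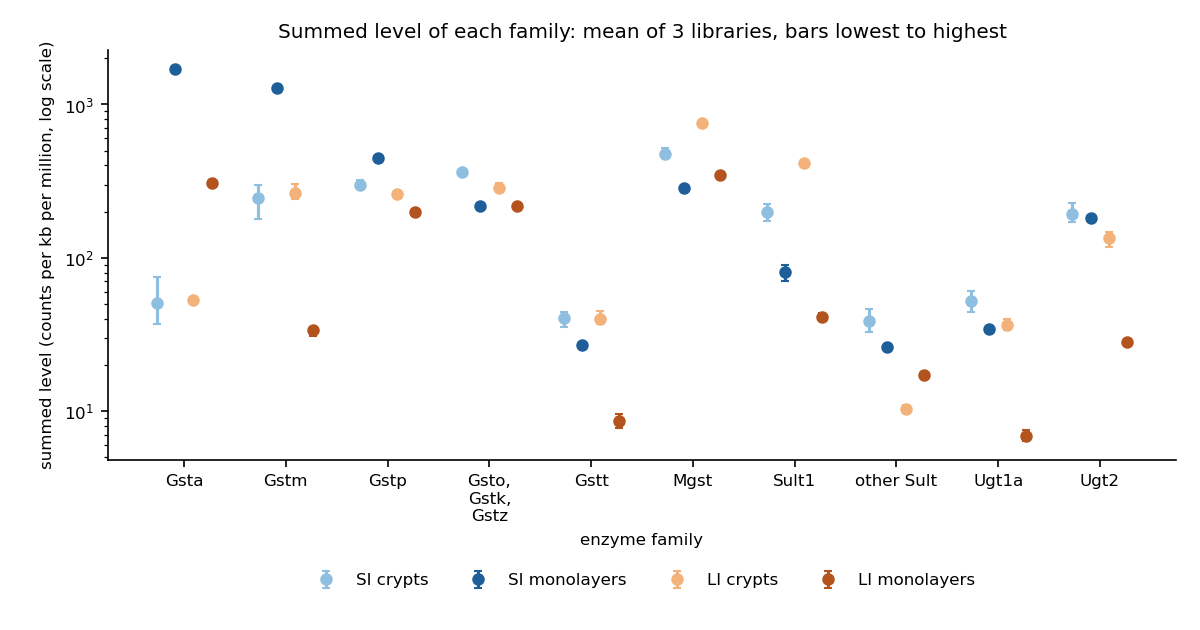
Summed level of the members of each enzyme family in RPKM on a log scale, as the mean of 3 libraries (points) with the lowest and highest library (bars), for the 4 groups. Gsta reached 1699 in SI monolayers and Gstm 33.8 in LI monolayers, from sums that were close to each other in the crypts of both regions. Ugt3a is not drawn because its 2 genes had no count.

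Mgst3, a membrane-bound enzyme with peroxidase activity, had the highest RPKM of the members in SI crypts (356 ± 28.4, mean ± SD, n = 3), LI crypts (627 ± 34.6) and LI monolayers (339 ± 5.82). In SI crypts its libraries overlapped those of the next gene, the omega class enzyme Gsto1 (331 ± 7.02), which uses glutathione to reduce mixed disulfides and dehydroascorbate. The pi class enzyme Gstp1 ranked next in both kinds of crypt, at 231 ± 16.1 and 188 ± 6.52 RPKM. In SI monolayers the order was another one, with Gsta4 (968 ± 9.32), Gstm3 (735 ± 8.54), Gsta1 (698 ± 9.84) and Gstm1 (451 ± 14.5) above Gstp1 (359.5 ± 1.73) and no overlap between neighbours among these 5. Gsta4 was also second in LI monolayers (269 ± 14.4). With the longest transcript as the length, Gsto1 stood above Mgst3 in SI crypts (567 against 356) and in LI monolayers (363 against 339), and Gsta4 remained first in SI monolayers (1254).

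The most abundant members of the other families follow. Gsto1 had 45919, 44256 and 44907 in SI crypts, 27004, 26557 and 27299 in SI monolayers, 32269, 33391 and 36489 in LI crypts, and 29281, 28661 and 28101 in LI monolayers as normalized counts. Its libraries did not overlap between the groups of any comparison, yet the largest difference was -0.71 on the log2 scale (SI monolayers against SI crypts), under the threshold of 1. Gstp1 had 25953, 23559 and 22600.0 in SI crypts, 36432, 36619.5 and 36492 in SI monolayers, 19574, 20720.1 and 20101 in LI crypts, and 16814, 17558 and 17517 in LI monolayers. It was highest in SI monolayers, and it was called only between SI and LI monolayers (log2 fold change 1.11 ± 0.05 (SE), adjusted p = 7.77e-11). Mgst3 had 28517, 25955 and 24218 in SI crypts, 14639, 14541 and 14996 in SI monolayers, 44985, 49239 and 48325 in LI crypts, and 25199, 24694 and 24820.0 in LI monolayers, and all 4 of its pairwise differences were between -0.89 and -0.73 with adjusted p-values no larger than 3.83e-08. These 3 genes were among the 7 highest members by RPKM in each group.

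Gstt1, a theta class enzyme known for conjugating small halogenated compounds, had 2634, 1863 and 2174 in SI crypts, 1513, 1648 and 1605 in SI monolayers, 1421, 1283 and 1928 in LI crypts, and 383, 303 and 277 in LI monolayers. It fell in LI culture (log2 fold change -2.22 ± 0.19 (SE), adjusted p = 4.95e-07) and had a log2 fold change of -0.45 ± 0.17 in SI culture. Ugt1a7c made up 78.4% to 92.8% of the summed Ugt1a RPKM in each group. It had 13368, 11656 and 10036 in SI crypts, 8319.8, 8418 and 8132 in SI monolayers, 9233, 10583 and 9647 in LI crypts, and 1539, 1849 and 1671 in LI monolayers. Its 3 LI monolayer libraries were below the other 9. Ugt2b34 led the Ugt2 genes with 69.3% to 97.3% of their sum, at 43571, 37844 and 34905 in SI crypts, 39157, 37409 and 36678 in SI monolayers, 30662, 35987 and 36114 in LI crypts, and 7684, 8115 and 8088 in LI monolayers. LI monolayers were again the lowest group, and SI monolayers overlapped SI crypts. The 9 Ugt1a genes share exons at 1 locus on chromosome 1, with 50.3% to 82.7% of each gene's exon length also annotated to other genes, so that their counts depend on how such reads were assigned. Divided by unshared exon length instead, Ugt1a7c had 90.8 and Ugt1a1 54.0 in SI crypts, and 74.2 and 11.9 in LI crypts. The lead of Ugt1a7c was thus smaller by that length. Its annotation ends at 88220002, and that of every other Ugt1a gene at 88219004 or before.

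Sult1d1, which sulfates catecholamines, had 17501, 15068 and 13576 in SI crypts, 8469, 7935 and 6321 in SI monolayers, 21175, 24905 and 22733 in LI crypts, and 4140.5, 4810.3 and 4544 in LI monolayers. It fell in LI culture (log2 fold change -2.31 ± 0.12 (SE), adjusted p = 3.88e-09), and its difference in SI culture, -0.99 ± 0.12 (adjusted p = 1.28e-05), lay just under the fold threshold. It passed it with DESeq2 (-1.03) and without SI crypt replicate 2 (-1.005) or 3 (-1.06) or SI monolayer replicate 1 (-1.04). Sult2b1, a cholesterol and hydroxysteroid sulfotransferase, had 10142, 9080.5 and 7371 in SI crypts, 4143, 4041 and 4204 in SI monolayers, 2733, 2539 and 2510.3 in LI crypts, and 3798, 4279 and 4233 in LI monolayers. SI crypts were the highest group for Sult2b1, and the 2 monolayer groups overlapped.

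**Figure D2:**
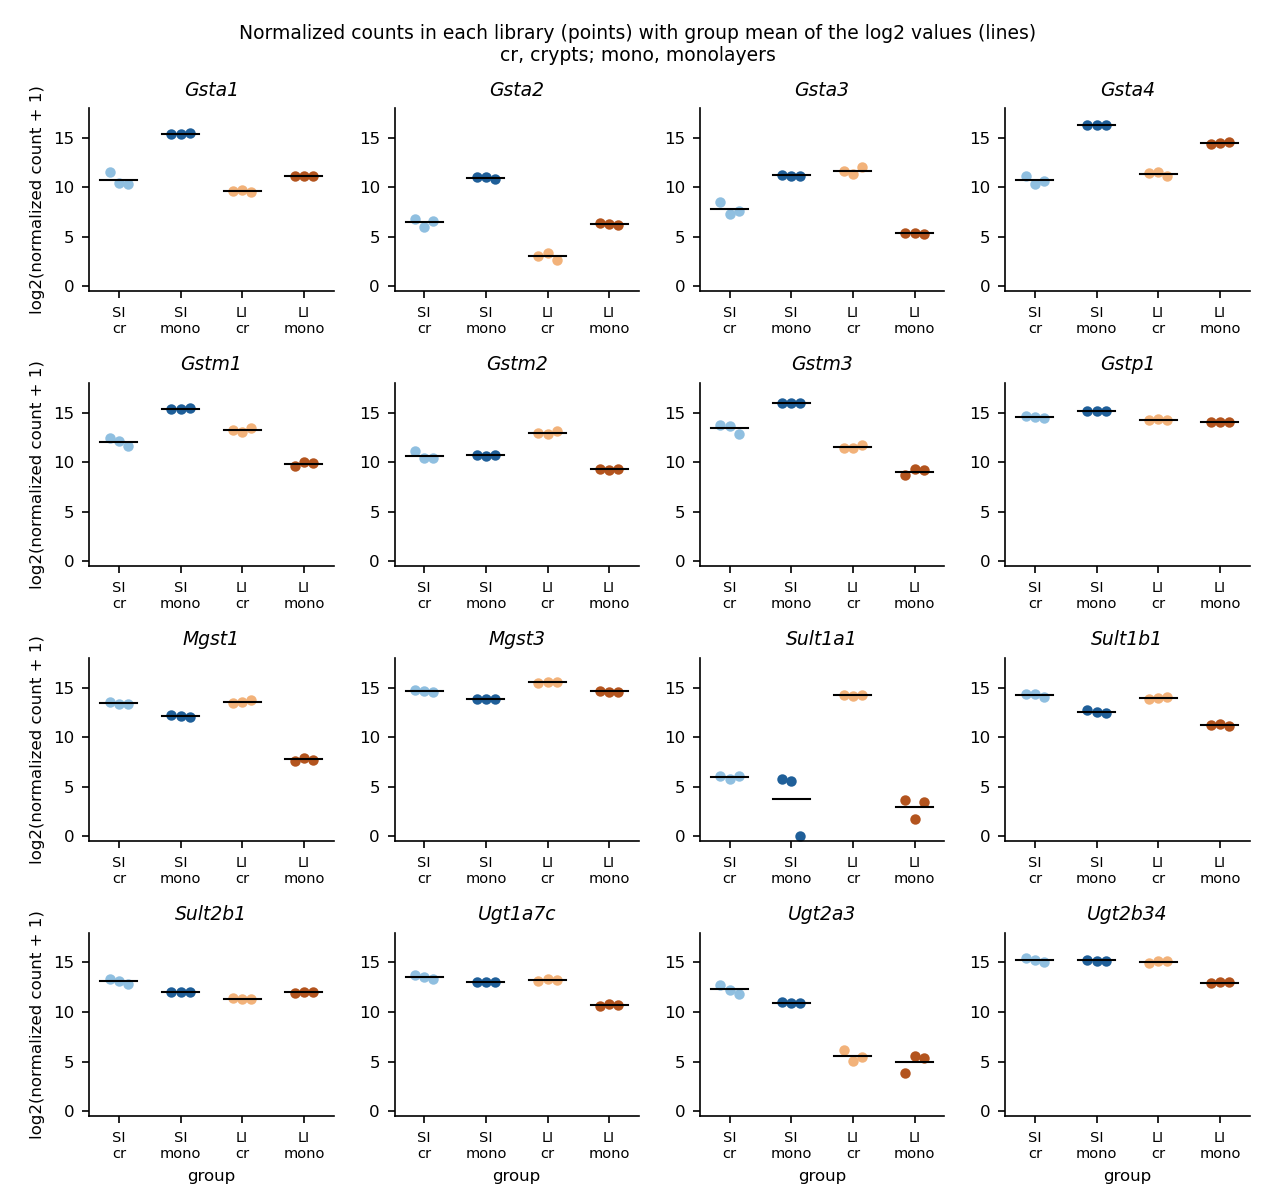
Normalized counts of 16 members in each library on a log2(value + 1) scale, with 1 point per library, lines for the group means of the log2 values, and panels on the same axis. Gsta1, Gsta2 and Gsta4 are higher in monolayers of both regions, Gsta3, Gstm1 and Gstm3 are at their highest or next to highest in SI monolayers and lowest in LI monolayers, and Sult1a1 is high only in LI crypts, with 1 SI monolayer library at 0.

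The first comparison asked which conjugating enzymes differ between SI monolayers and freshly isolated SI crypts. All 4 alpha and 3 of 7 mu class glutathione transferases were higher after 24 h of culture, by up to 48.6-fold for Gsta4, whereas Ugt1a9, Sult1b1, Ugt2a3, Gstk1, Ugt1a1, Mgst1 and Sult2b1 were lower. Of the 45 members tested, 16 were called (35.6%), 9 higher and 7 lower, beside 26.1% of all 19581 genes. Higher calls made up 9.71% and lower calls 16.4% of all genes. The median log2 fold change of the 45 members was -0.03, and that of all genes was -0.05. Beside the Gsta genes, Gstm1, Gstm3 and Gstm4 rose, and the other 2 higher calls were Sult6b2 and Ugt2b1. Under DESeq2 the same number of members was called, 7 higher and 9 lower. Libraries of the 2 groups did not overlap for 31 members (68.9%), against 66.4% of all genes.

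Gsta4, known for conjugating the lipid peroxidation product hydroxynonenal, had the largest rise. Its normalized counts were 2235, 1242 and 1604 in SI crypts, 80823, 80962 and 79335 in SI monolayers, 2831, 2913 and 2196 in LI crypts, and 21597, 22609 and 24235 in LI monolayers. The 3 SI monolayer libraries lay far above all others, followed by the 3 LI monolayer libraries. It rose in SI (log2 fold change 5.60 ± 0.22 (SE), adjusted p = 1.16e-08), and no run of 50 bases in its transcripts (GRCm38, chr9:78182774-78209349, plus strand) occurs in another gene.

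Gsta1 and Gsta2 encode alpha class enzymes with peroxidase activity towards lipid hydroperoxides. Gsta1 had 2925, 1360.3 and 1265 in SI crypts, 43914, 43081 and 44248 in SI monolayers, 779, 840.3 and 727 in LI crypts, and 2219, 2258 and 2328 in LI monolayers. SI crypt replicate 1 was the highest crypt library, and all crypts stayed below every SI monolayer (log2 fold change 4.60 ± 0.31 (SE), adjusted p = 1.60e-06). Gsta2 had lower counts, at 113, 62.5 and 93.8 in SI crypts, 2077, 2069 and 1799 in SI monolayers, 7.52, 9.15 and 5.36 in LI crypts, and 85.7, 75.8 and 71.1 in LI monolayers. It rose by 4.50 ± 0.17 (SE) on the log2 scale (adjusted p = 3.45e-12). Reads of these genes are hard to tell apart, since 90.5% of the 50-base runs of Gsta1 occur in other genes (75.7% in the unnamed paralog Gm3776) and 49.8% of those of Gsta2. Gm3776, which is no member by its symbol, had 2856, 1372 and 1455 in SI crypts, 53363, 52859 and 53406 in SI monolayers, 929, 881 and 739 in LI crypts, and 2457, 2705 and 2671 in LI monolayers, a pattern close to that of Gsta1, and the counts of both are uncertain to the extent that the reads were split between them.

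Gsta3, an alpha class enzyme known for high activity towards aflatoxin epoxide in mice, stood apart from the other 3. It had 374, 161 and 197 in SI crypts, 2414, 2300.2 and 2299.7 in SI monolayers, 3096, 2675 and 4129 in LI crypts, and 40.4, 41.3 and 37.6 in LI monolayers. SI monolayers were above SI crypts (log2 fold change 3.31 ± 0.28 (SE), adjusted p = 4.48e-06), and LI monolayers were far below LI crypts. Only 0.273% of its 50-base runs occur in other genes.

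The upstream windows of Gsta1, Gsta2 and Gsta3 are shown because these 3 genes rose together in SI culture and parted in LI culture, and the Mgst1 window that holds a match as an example from a gene that fell in both regions. Each holds the 250 bases before a RefSeq start site (GRCm38), 5′ to 3′ on the gene's strand, at chr9:78230419-78230668 (plus strand), chr9:78347146-78347395 (minus strand), chr1:21240335-21240584 (plus strand) and chr6:138140277-138140526 (plus strand). Capitals mark matches on either strand to TGACNNNGC, the core of the antioxidant response element, or to GCGTG, the core bound by the Ah receptor.
Gsta1: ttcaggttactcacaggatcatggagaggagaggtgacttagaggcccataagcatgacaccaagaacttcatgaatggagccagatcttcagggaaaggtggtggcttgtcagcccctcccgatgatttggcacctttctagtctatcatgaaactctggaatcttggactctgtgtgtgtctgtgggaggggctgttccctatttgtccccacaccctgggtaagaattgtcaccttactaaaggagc
Gsta2: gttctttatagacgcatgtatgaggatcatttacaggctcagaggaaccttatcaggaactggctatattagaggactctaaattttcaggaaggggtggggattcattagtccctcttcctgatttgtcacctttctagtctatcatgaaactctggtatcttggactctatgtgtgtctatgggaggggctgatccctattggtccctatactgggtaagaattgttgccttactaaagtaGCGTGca
Gsta3: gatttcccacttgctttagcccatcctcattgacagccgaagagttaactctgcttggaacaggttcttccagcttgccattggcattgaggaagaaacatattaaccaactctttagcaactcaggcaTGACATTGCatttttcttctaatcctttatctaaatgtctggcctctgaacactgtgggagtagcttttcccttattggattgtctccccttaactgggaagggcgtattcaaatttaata
Mgst1: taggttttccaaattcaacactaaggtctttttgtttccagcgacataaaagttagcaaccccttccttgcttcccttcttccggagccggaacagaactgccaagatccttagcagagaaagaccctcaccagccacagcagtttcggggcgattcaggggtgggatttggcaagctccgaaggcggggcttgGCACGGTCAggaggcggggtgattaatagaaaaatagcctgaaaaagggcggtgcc
The Gsta1 and Gsta2 windows share a run of 29 bases, against at most 9 between either of them and Gsta3. TGACNNNGC starts at position -121 of the Gsta3 window and -56 of the Mgst1 window shown, counted from the start site, and GCGTG at -7 of the Gsta2 window. For Gsta4 no RefSeq window was found, so it is not shown beside the other alpha class genes. RefSeq windows were found for 59 of the 67 members. Of their 71 windows, 4 held TGACNNNGC (5.63%) beside 10.2% of all 32851 windows, 12 held GCGTG (16.9%) beside 28.2%, and 0 held the Hnf1 motif beside 0.134%. The TGACNNNGC windows belonged to Gsta3, Gstm5, Gstm7 and Mgst1. A second Mgst1 window (chr6:138141337-138141586, plus strand) held none of the motifs, and the other 4 members called lower in both regions (Gstk1, Sult1b1, Ugt1a1 and Ugt1a9, the last with few counts in LI) held no TGACNNNGC.

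Among mu class genes, which conjugate aromatic epoxides and other electrophiles, Gstm1 had 5685, 4575 and 3108 in SI crypts, 42547, 43119.6 and 45021 in SI monolayers, 10047, 8694 and 11249 in LI crypts, and 775, 1015 and 959.5 in LI monolayers. All SI monolayers were above all SI crypts (log2 fold change 3.33 ± 0.21 (SE), adjusted p = 6.34e-07). Gstm3 had 13816, 13248 and 7308 in SI crypts, 62988, 62748 and 63919 in SI monolayers, 2837, 2814 and 3448 in LI crypts, and 419.7, 615 and 579 in LI monolayers. SI crypt replicate 3 was the lowest SI crypt library for both genes, and the SI monolayers were again above all of them for Gstm3 (log2 fold change 2.50 ± 0.24 (SE), adjusted p = 1.53e-05). Gstm4 just passed the fold threshold in SI culture (log2 fold change 1.04 ± 0.09 (SE), adjusted p = 4.06e-08), and was under it with at least 10 counts in every library (0.97) and without SI crypt replicate 3 (0.96). Gstt2 had -0.97 and was not called, but it was called lower with DESeq2 (-1.01), with upper quartile scaling (-1.02), with at least 10 counts in every library (-1.04) and without SI crypt replicate 2 (-1.04). Log2 fold changes of the other 4 mu class genes (Gstm2, Gstm5, Gstm6 and Gstm7) lay between -0.30 and 0.30 and none was called. Of the 50-base runs of Gstm1 and Gstm3, 18.9% and 28.8% occur in other genes, and for Gstm4 none does.

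Sult6b2 had 1055, 248 and 511 in SI crypts, 1312, 1337 and 1289 in SI monolayers, 16.9, 3.66 and 5.36 in LI crypts, and 27, 32.1 and 17.8 in LI monolayers. Its SI crypt libraries lay far apart, and its rise in SI culture (adjusted p = 0.048) was lost with DESeq2 (adjusted p = 0.096), with upper quartile scaling (0.054), without the filter on low counts, with only the 2 groups in the fit, and on leaving out any 1 library other than SI crypt replicate 1 and LI crypt replicate 1 (adjusted p between 0.054 and 0.131). Ugt2b1 was called higher at a low level, with 7.06, 2.08 and 5.87 in SI crypts and 17.3, 11.6 and 12.8 in SI monolayers. Its call was lost with DESeq2 (adjusted p = 0.066), with the replicate block (0.059), without the filter on low counts (0.129), and on leaving out any 1 library of LI crypts or SI monolayers or SI crypt replicate 2 or 3 (0.051 to 0.157).

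Of the genes that fell in SI culture, Ugt1a9, which glucuronidates phenols and many drugs, had 311, 185 and 204 in SI crypts and 32.6, 25.8 and 29.2 in SI monolayers (log2 fold change -2.96 ± 0.42 (SE), adjusted p = 2.79e-05). Sult1b1, which sulfates phenols and thyroid hormones, had 21564, 20199 and 16695 in SI crypts, 6654, 5913 and 5608 in SI monolayers, 15143, 15969 and 17106 in LI crypts, and 2334, 2552 and 2242 in LI monolayers. Its fall in SI was -1.65 ± 0.09 on the log2 scale (adjusted p = 1.48e-09). Gstk1, a kappa class enzyme of mitochondria and peroxisomes, had 2546, 2009.8 and 1757 in SI crypts, 751, 844 and 841 in SI monolayers, 3805, 3842 and 3791 in LI crypts, and 453, 435 and 428 in LI monolayers, with monolayers below crypts in both regions and a log2 fold change of -1.34 ± 0.10 in SI. Ugt2a3, known for bile acid glucuronidation, had 6947, 4907 and 3656 in SI crypts, 2015, 1969 and 1959.6 in SI monolayers, 72.4, 33 and 42.8 in LI crypts, and 13.5, 47.1 and 40.5 in LI monolayers. It fell in SI (log2 fold change -1.35 ± 0.27 (SE), adjusted p = 0.002) and was low in all LI libraries. Ugt1a1, the bilirubin glucuronosyltransferase, had 1636, 1534 and 1021 in SI crypts and 585, 509 and 536 in SI monolayers and fell by 1.33 on the log2 scale. Sult2b1 passed the fold threshold at -1.07 and was under it without SI crypt replicate 1 (-0.96).

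The second comparison was that of LI monolayers with LI crypts. Most conjugating enzymes were called lower after culture, including all 7 Gstm, all 6 tested Ugt1a, all 4 tested Sult1 and all 3 tested Gstt genes, and only Gsta1, Gsta2, Gsta4 and Sult4a1 were higher. The call of Ugt1a9 is uncertain, since its counts were near 0 in LI crypts as well. Of the 45 members, 37 were called (82.2%), 33 lower and 4 higher, beside 38% of all genes (23.5% lower and 14.5% higher). The median log2 fold change of the members was -2.31, against -0.05 for all genes, and -2.23 with Ugt1a9, which had no count in LI monolayers, at its bound. Libraries did not overlap for 41 members (91.1%), against 73.1% of all genes. Not called were Gsto1, Gstp1, Mgst3, Sult2b1, Sult6b1, Sult6b2, Ugt2a3 and Ugt2b1.

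Sult1a1, the main phenol sulfotransferase, had the largest fall. Its normalized counts were 65.9, 53.2 and 64.5 in SI crypts, 54.7, 47.2 and 0 in SI monolayers, 19747, 18312 and 19709.8 in LI crypts, and 11.6, 2.3 and 9.88 in LI monolayers. LI crypts were thus the only group with high counts, and it fell in LI culture (log2 fold change -11.13 ± 0.57 (SE), adjusted p = 1.40e-07). In LI crypts Sult1a1 was the fourth of the members by RPKM (185 ± 7.95), and 4.05% of its exon length overlaps Sgf29 on the other strand.

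Gsta3 fell from at least 2675 normalized counts in each LI crypt library to at most 41.3 in each LI monolayer library (log2 fold change -6.33 ± 0.35 (SE), adjusted p = 1.01e-07). Ugt2b5, a glucuronosyltransferase of steroids and phenols, had 801, 312 and 417 in SI crypts, 951, 863 and 846 in SI monolayers, 548, 1686 and 616 in LI crypts, and 15.4, 16.1 and 9.88 in LI monolayers. LI crypt replicate 2 was far above the other LI crypts, and the fall (log2 fold change -6.06 ± 0.70 (SE), adjusted p = 4.33e-05) was -5.35 without it. Of the 50-base runs of Ugt2b5, 41.7% occur in other genes, mostly in Ugt2b38. Mgst1, a membrane enzyme that conjugates and reduces lipid peroxides, had 12325, 10451 and 10723 in SI crypts, 4697, 4466 and 4313 in SI monolayers, 10823, 11579.7 and 13333 in LI crypts, and 193, 243 and 208 in LI monolayers. The 2 kinds of crypt overlapped for Mgst1, and it fell in SI (log2 fold change -1.28 ± 0.09 (SE), adjusted p = 1.20e-08) and in LI (log2 fold change -5.75 ± 0.11 (SE), adjusted p = 7.40e-15). Ugt2b35 had 3697, 2843 and 3798 in SI crypts, 4962, 4568 and 4203 in SI monolayers, 2336, 2812 and 2657 in LI crypts, and 44.3, 82.6 and 77.1 in LI monolayers, with LI monolayers below every other library (log2 fold change -5.22 ± 0.20 (SE), adjusted p = 3.06e-10).

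All mu class genes fell in LI culture, by log2 fold changes from -1.90 (Gstm5) to -5.04 (Gstm7). Gstm2 had 2225, 1382 and 1324 in SI crypts, 1737, 1589 and 1669 in SI monolayers, 7719, 7161 and 9147 in LI crypts, and 631, 576 and 650.2 in LI monolayers. Its LI crypts were above all other libraries, and the SI groups overlapped. Gstm1 fell by 3.40 and Gstm3 by 2.45 on the log2 scale (adjusted p = 3.92e-07 and 1.73e-05), 2 genes that had risen in SI. Mgst2, which forms leukotriene conjugates, fell by 2.80 in LI and had 11661, 12917 and 12194 in LI crypts and 1679, 1737 and 1708 in LI monolayers. Among the pi class genes, Gstp2 (-1.04) and Gstp3 (-1.95) fell, and 33.7% of the 50-base runs of Gstp1 occur in Gstp2.

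All tested UGTs other than Ugt2a3 and Ugt2b1 were called lower in LI monolayers. Ugt2b34 fell by 2.06 and Ugt1a7c by 2.50 on the log2 scale. Ugt1a9 had 7.52, 0 and 3.57 in LI crypts and 0, 0 and 0 in LI monolayers, so that LI crypts were at least 1.19-fold higher against the limit of 3 counts per library, and its call was lost without LI crypt replicate 1 (adjusted p = 0.054). Among the SULTs, Sult1b1 and Sult1c2 fell, with log2 fold changes of -2.71 and -3.50. Sult6b2 was not called in LI (log2 fold change 1.60 ± 0.94 (SE), adjusted p = 0.16), but it was with DESeq2 (adjusted p = 0.029), with only the 2 groups in the fit (0.029), and without SI crypt replicate 1 (0.031) or 2 (0.037).

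The rises in LI were smaller than those in SI for the alpha class genes. Gsta2 rose by 3.43 ± 0.27, Gsta4 by 3.15 ± 0.20 and Gsta1 by 1.58 ± 0.29 (SE, log2 scale; adjusted p = 8.40e-09, 2.38e-07 and 9.98e-04). Sult4a1, a sulfotransferase known mainly from brain, had 118, 200.1 and 170.1 in SI crypts, 174, 118 and 149.5 in SI monolayers, 133, 86 and 57.1 in LI crypts, and 194, 168 and 265 in LI monolayers. LI monolayers were above all LI crypts, and the rise (log2 fold change 1.23 ± 0.29 (SE), adjusted p = 0.0013) fell under the fold threshold without LI crypt replicate 3 (0.99) or LI monolayer replicate 3 (0.95).

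**Figure D3:**
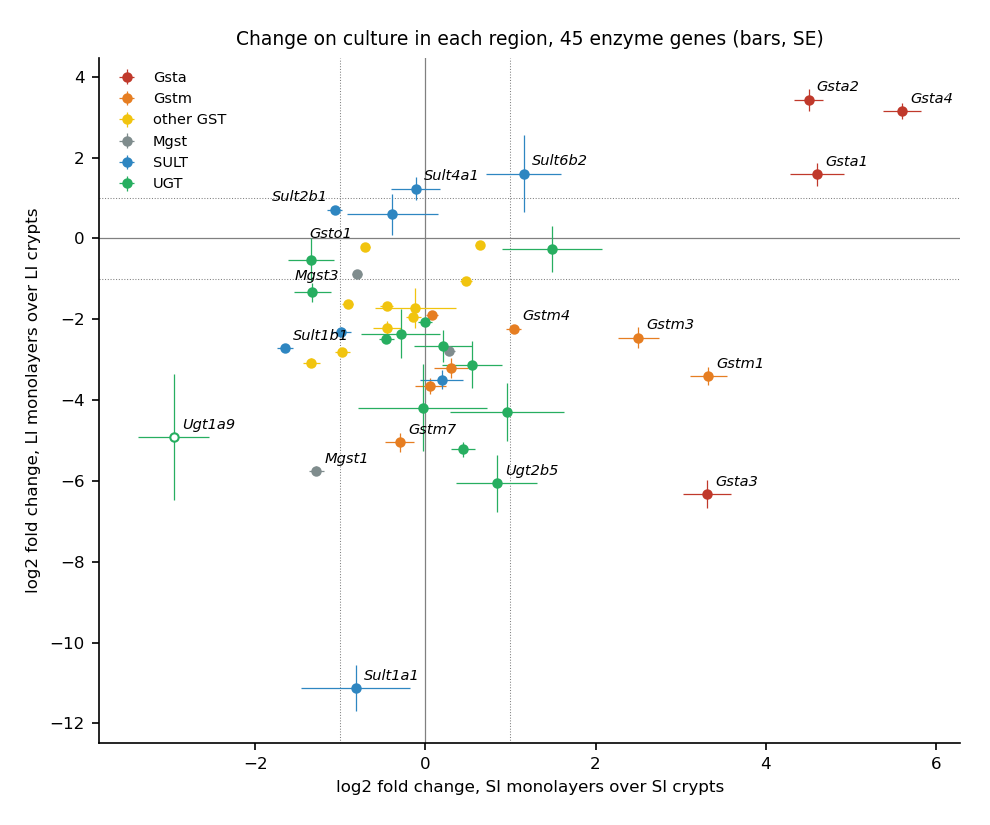
Log2 fold change of 45 members from crypts to monolayers in SI (horizontal) and LI (vertical), with SE as bars, colours for enzyme classes and dotted lines at the fold threshold. Gsta1, Gsta2 and Gsta4 lie at the upper right, Gsta3, Gstm1, Gstm3 and Gstm4 at the lower right, and most UGT and other genes lie near 0 in SI and below -1 in LI. The open point is Ugt1a9, whose LI value rests on a group without counts and depends on the fit's prior count.

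Across both regions, 3 of 45 members rose in both (Gsta1, Gsta2 and Gsta4), beside 6.04% of all genes, and 4 rose in SI and fell in LI (Gsta3, Gstm1, Gstm3 and Gstm4), beside 0.664%. In both regions 5 were called lower (Gstk1, Mgst1, Sult1b1, Ugt1a1 and Ugt1a9), beside 11.2% of all genes. For Ugt1a9 a fall in LI is not established, since it had 7.52, 0 and 3.57 normalized counts in LI crypts. Another 24 fell in LI and were not called in SI, beside 11.6%, and Gsto1, Gstp1, Mgst3 and Sult6b1 were called in neither, beside 54.4%. Of the other 5, Sult6b2 and Ugt2b1 rose in SI alone (3.01% of all genes), Sult2b1 and Ugt2a3 fell in SI alone (4.61%), and Sult4a1 rose in LI alone (7.89%). These are descriptions of the calls, and whether a gene's 2 changes differed is given by the interaction.

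The third comparison was between the fresh crypts of the 2 regions. Ugt2a3, Sult6b2, Ugt1a9, Gsta2, Ugt2b36, Ugt1a1, Gstm3, Sult2b1 and Gsta1 were higher in SI crypts, and Sult1a1, Sult1c2, Gsta3, Ugt1a6b, Gstm2 and Gstm1 were higher in LI crypts. These were 15 of 45 members called (33.3%), 9 higher and 6 lower in SI, beside 22.7% of all genes (11.6% higher and 11.1% lower). The median log2 fold change was -0.05 for the members and 0.06 for all genes. Libraries did not overlap for 30 members (66.7%), against 58.8% of all genes.

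Ugt2a3 was higher in SI crypts (log2 fold change 6.75 ± 0.38 (SE), adjusted p = 3.44e-07), Sult6b2 by 6.16 ± 0.69 and Ugt1a9 by 5.98 ± 0.53 on the log2 scale. In the other direction, Sult1a1 was 306-fold higher in LI crypts (log2 fold change -8.26 ± 0.46 (SE), adjusted p = 5.35e-07). Sult1c2 had 88.2, 45.9 and 90.9 in SI crypts, 99.8, 83.7 and 67.5 in SI monolayers, 1027, 1262 and 1413 in LI crypts, and 89.5, 97.6 and 130.4 in LI monolayers. Only LI crypts were high for Sult1c2 (log2 fold change -4.00 ± 0.24 (SE), adjusted p = 2.22e-09). Gsta3 and Gstm2 were higher in LI crypts by log2 differences (SI minus LI) of -3.73 and -2.25. Gsta1 was under the fold threshold without SI crypt replicate 1 (0.79), and Gstm1 without SI crypt replicate 3 (-0.93). Sult4a1 was not called (log2 fold change 0.87 ± 0.29 (SE), adjusted p = 0.019), but it passed without SI crypt replicate 1 (1.05) or LI crypt replicate 1 (1.22).

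The fourth comparison was between the monolayers of the 2 regions. The differences ran in 1 direction, with 33 of 45 members (73.3%) higher in SI monolayers and 0 lower by edgeR's test, beside 21.2% of all genes called (12.4% higher and 8.88% lower). At an unadjusted p under 0.05 and the same fold threshold 1 member was lower in SI monolayers (Sult6b1), by edgeR as by DESeq2, and DESeq2 also called 0 lower. With the replicate block, halved counts or the fit of only the 2 groups, Sult6b1 was called lower (-1.30, -1.21 and -1.16). Ugt1a6b was not called without SI monolayer replicate 1 or 3 or LI monolayer replicate 1 or 3 (adjusted p = 0.052 to 0.068). Gstk1 was not called (0.92) but reached 1.001 without SI monolayer replicate 1. Without a minimum fold change Mgst3 was lower (log2 fold change -0.73 ± 0.06 (SE), adjusted p = 3.83e-08). The median log2 fold change was 2.27 for the members and 0.02 for all genes, and libraries did not overlap for 40 members (88.9%), against 62.3% of all genes. The 33 were all 4 Gsta, all 7 Gstm, all 3 Gstp, 2 Gstt, Gstz1, 2 Mgst, all 6 tested Ugt1a and 6 of 7 tested Ugt2 genes, and 2 SULTs, Sult1b1 and Sult6b2.

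Of the members with counts in every group, Gstm3 differed most, with 120.1-fold more in SI monolayers (log2 fold change 6.91 ± 0.30 (SE), adjusted p = 6.84e-08). Ugt2b36 had 630.4, 380.5 and 432 in SI crypts, 704, 728 and 630.1 in SI monolayers, 44.2, 157 and 59.8 in LI crypts, and 11.6, 11.5 and 5.93 in LI monolayers. All SI libraries were above all LI libraries, with SI above LI also in crypts (2.50, and 3.24 without LI crypt replicate 2). The difference between monolayers was log2 fold change 6.17 ± 0.53 (SE), adjusted p = 2.12e-06. Ugt2b35 and Ugt2b5 were 69.2-fold and 65.4-fold higher in SI monolayers. Ugt1a9, with no count in LI monolayers, was at least 9.43-fold higher in SI monolayers against the limit of 3 counts per library. Sult1a1 was not called (log2 fold change 2.05 ± 0.98 (SE), adjusted p = 0.12), and without SI monolayer replicate 3, which had no count of it, it was (2.67, adjusted p = 6.43e-06).

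**Figure D4:**
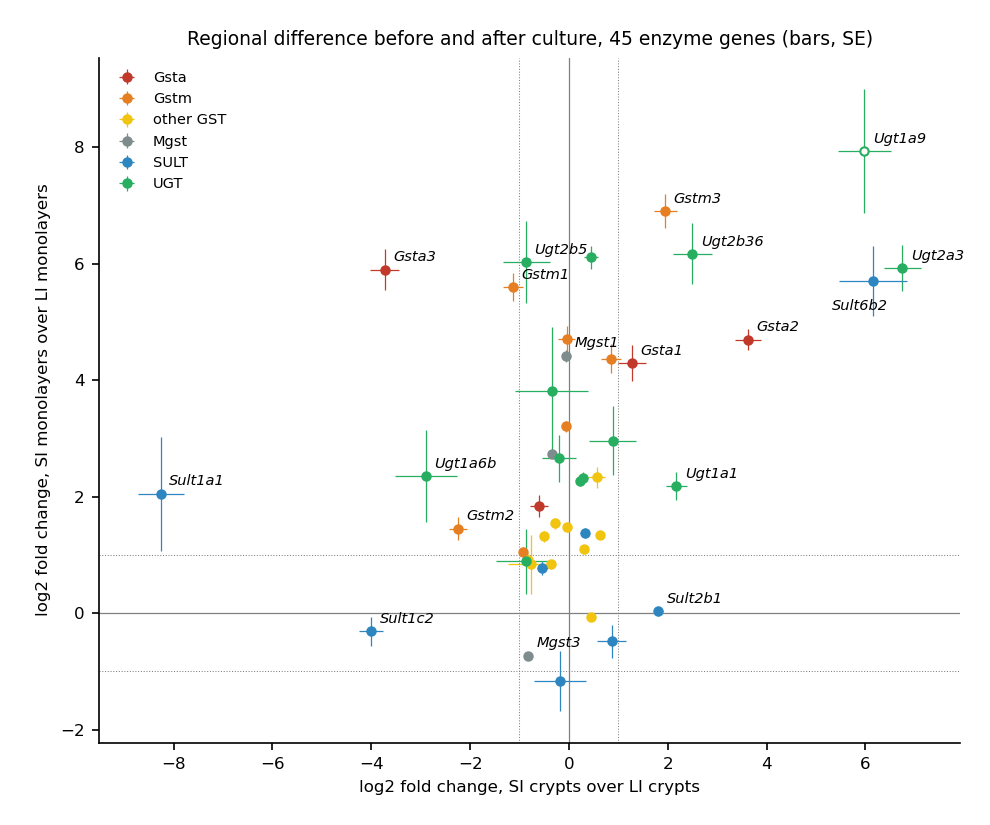
Log2 fold change of 45 members between SI and LI in crypts (horizontal) and in monolayers (vertical), with SE as bars, colours for enzyme classes and dotted lines at the fold threshold. Points spread to both sides of 0 in crypts and lie mostly above 1 in monolayers, and Gsta3, Gstm1, Gstm2 and Ugt1a6b lie at the upper left, as does Sult1a1, whose monolayer difference was not called. The open point is Ugt1a9, whose monolayer value rests on a group without counts.

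Of the 45 members, 8 were higher in SI in both comparisons (Gsta1, Gsta2, Gstm3, Sult6b2, Ugt1a1, Ugt1a9, Ugt2a3 and Ugt2b36), beside 5.77% of all genes, and 4 were lower in SI crypts and higher in SI monolayers (Gsta3, Gstm1, Gstm2 and Ugt1a6b), beside 0.853%. Sult1a1 and Sult1c2 were lower in SI crypts and not called between monolayers (5.88% of all genes), and Sult2b1 was higher in SI crypts alone (5.27%). Another 21 were higher in SI monolayers alone, beside 5.74% of all genes, and 9 were called in neither, beside 67.6%. Among the members 0 were lower in SI in both comparisons or in monolayers alone by edgeR's test, beside 4.41% and 3.94% of all genes. At an adjusted p under 0.05 with no minimum fold, 28 of 45 members were called in SI culture (59.6% of all genes), 41 in LI culture (68.7%), 34 between crypts (53.9%), 37 between monolayers (51.8%) and 37 for the interaction (46.3%).

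Whether the change on culture differed between the regions was tested as the interaction of region and culture, the log2 fold change in SI minus that in LI. It was called for 34 of 45 members (75.6%), 32 with a higher and 2 with a lower value in SI, beside 20% of all genes (11.4% higher and 8.51% lower). The median interaction was 1.98 for the members and -0.00021 for all genes. Sult1a1 had the largest (log2 fold change 10.31 ± 1.09 (SE), adjusted p = 6.67e-05), followed by Gsta3 (log2 fold change 9.63 ± 0.45 (SE), adjusted p = 1.34e-07), Ugt2b5 (6.89 ± 0.86) and Gstm1 (6.73 ± 0.31). All 4 Gsta and all 7 Gstm genes had a called interaction, that of Gsta2 (log2 fold change 1.07 ± 0.38 (SE), adjusted p = 0.032) being lost with halved counts (adjusted p = 0.065) and without LI crypt replicate 1 (adjusted p = 0.080) or 2 (0.157) or SI crypt replicate 2 (0.86, under the fold threshold). That of Sult1b1 was under the fold threshold without SI crypt replicate 3 (0.97). The interaction of Ugt1a8 was lost without the filter on low counts (adjusted p = 0.088), with the replicate block (0.065), and without SI crypt replicate 2 or 3, SI monolayer replicate 2, LI crypt replicate 2 or LI monolayer replicate 1 or 2 (0.060 to 0.112), and that of Ugt2b38 without LI crypt replicate 2 (0.069) or LI monolayer replicate 1 (0.050). Gsto2 was called with halved counts (0.047) and without SI crypt replicate 3 (0.027), SI monolayer replicate 3 (0.048) or LI monolayer replicate 2 (0.020). The 2 negative ones were Sult2b1 (log2 fold change -1.77 ± 0.12 (SE), adjusted p = 2.45e-08) and Sult4a1 (log2 fold change -1.35 ± 0.40 (SE), adjusted p = 0.012), the latter lost without SI monolayer replicate 2 (adjusted p = 0.063) or LI monolayer replicate 3 (0.071). Ugt1a1 had the smallest interaction of the genes called lower in both regions (-1.33 in SI and -1.34 in LI, interaction 0.01 ± 0.30).

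The genes that supply the cosubstrates were read from the same fit. Counts in this and the following lists stand beside 9.71% of all genes higher and 16.4% lower in SI culture. In LI culture 14.5% of all genes were higher and 23.5% lower. Ugdh, which makes UDP-glucuronic acid, had 17977, 13859 and 12797 in SI crypts and 30293, 29151 and 28757 in SI monolayers, and 20194, 24687 and 20606 in LI crypts and 5566, 5789 and 5923 in LI monolayers. It rose in SI (log2 fold change 1.02, adjusted p = 4.21e-06) and fell in LI (-1.88, adjusted p = 8.00e-09). Of the 5 genes listed under UDP-glucuronic acid supply, Ugdh was the only one called in SI. In LI, Ugp2 (-0.70), Slc35d1 (-0.16) and Slc35d2 (0.22) were not called. The listed Slc35a3 fell in LI (-1.69), but it is known as a transporter of UDP-N-acetylglucosamine, not of UDP-glucuronic acid. Of 7 genes of sulfate activation and transport, 2 fell in SI culture and 5 in LI culture. Their median was -0.44 in SI and -1.46 in LI, beside -0.05 for all genes in each. Papss2, which makes PAPS, fell in both (log2 fold change -1.38 in SI and -1.69 in LI).

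Of 11 genes of glutathione synthesis and recycling, 3 rose and 2 fell in SI culture, and 2 rose and 1 fell in LI culture. Slc7a11, the cystine transporter, had 94.1, 142 and 102 in SI crypts and 3677, 3429.9 and 3199 in SI monolayers, and group means of 182 in LI crypts and 652 in LI monolayers. It rose in both regions, by 4.96 and 1.89 on the log2 scale. Gclc, the catalytic subunit of the enzyme of the first step of glutathione synthesis, rose in SI (1.81) and had a value of 0.43 in LI, while Gclm, its modifier subunit, had 0.11 and -0.05 and was not called. Gss, of the next step, also rose in SI (1.18). Ggt1, which breaks glutathione down at the cell surface, and Ggct, which degrades gamma-glutamyl peptides, fell in SI (-2.64 and -1.20). In LI, Slc3a2, the partner of Slc7a11, rose (1.42) and Oplah fell (-1.66).

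Of 8 other conjugating enzymes tested (methyl-, acetyl- and acyltransferases among them), 1 rose and 3 fell in SI culture, and 5 fell in LI culture. Acsm3 rose in SI (1.21) and fell in LI (-4.38), and Hpgds, a glutathione-dependent prostaglandin synthase, fell in both (-3.51 and -1.14). Among 6 enzymes that release conjugates or act on the same substrates, 2 rose and 2 fell in SI culture and 2 fell in LI culture. Ephx1, the microsomal epoxide hydrolase, rose in SI (3.41) and Ephx2, the soluble one, fell (-2.47), while Nqo1 fell in LI (-1.16). Of 7 transporters that export conjugates and bile acids, 3 rose and 2 fell in SI, and 2 rose and 2 fell in LI. Abcc1 and Abcc4 rose in both regions (Abcc1 2.56 and 2.20, Abcc4 2.24 and 2.39), and Slc51b fell in both (-3.05 and -2.74). Abcg2 fell in LI (-1.75).

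Of 14 transcriptional regulators known to act on these enzymes, 1 fell in SI culture, and 1 rose and 6 fell in LI culture. Of all genes 16.4% were lower in SI culture, and 14.5% higher and 23.5% lower in LI culture. Vdr, the vitamin D receptor, fell in both (-1.31 in SI and -3.17 in LI). In LI, Nr1i3 (-2.49), Ppara (-2.20) and Nr1h4 (-1.75) fell and Ahr rose (1.58). Nfe2l2 encodes the factor that acts through the antioxidant response element. Its log2 fold changes were 0.83 in SI (adjusted p = 1.49e-08) and 0.82 in LI (adjusted p = 9.74e-09). Both lay under the fold threshold, so that it was not called in either region.

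Markers of the epithelial cell types moved with culture as well. The counts below stand beside 9.71% of all genes higher and 16.4% lower in SI culture, and 14.5% and 23.5% in LI culture. In LI culture all 10 goblet markers fell, and their sum went from 18282 to 23649 CPM in LI crypts to 1647 to 1832 CPM in LI monolayers. In SI culture 5 of 10 fell (7253 to 15227 and 5319 to 5475 CPM). Enterocyte markers were called lower for 5 of 12 genes in each region, with sums of 4230 to 7258 and 1928 to 2030 CPM in LI crypts and monolayers, and of 15305 to 23335 and 6422 to 6574 CPM in SI. Stem cell markers fell for 6 of 8 genes in LI and 2 of 8 in SI, tuft markers for 8 of 8 in both regions, and immune markers for 11 of 12 in LI and 10 of 12 in SI. The stem cell sum was nonetheless lower in monolayers of both regions. It was 1365 to 1768 CPM in SI crypts and 267 to 277 CPM in SI monolayers, and 257 to 278 and 72.1 to 77.6 CPM in LI crypts and monolayers. The immune sum went from 531 to 693 CPM in SI crypts to 56.9 to 64.0 CPM in SI monolayers, and from 50.9 to 63.7 to 4.09 to 6.13 CPM in LI. Enteroendocrine markers rose for 5 of 9 genes in LI and for 2 of 9 in SI, where 1 fell, proliferation markers rose for 1 of 10 in LI, and Paneth markers, 7 of 8 of which were tested, fell for 1 in LI. No Paneth marker was called in SI culture, where the SI crypt libraries lay far apart. Paneth markers summed to 3925 to 19097 CPM in SI crypts and 6968 to 7554 CPM in SI monolayers. Mesenchymal markers, at most 89.2 CPM in sum in any library, rose for 3 and fell for 2 of 10 genes in LI and fell for 3 in SI. Of all these lists only Ang6, a Paneth marker that was not tested, was at 0 in a whole group (LI monolayers). The part of cell composition in the changes of the enzymes was not tested.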

How the data were processed

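Counts per gene were deposited by the authors as whole numbers, from paired-end reads aligned to GRCm38 with STAR 2.7.9a and counted on GENCODE genes with featureCounts 2.0.2. The authors also deposited a normalized signal, in which a library's counts were divided by its DESeq2 size factor (0.850 to 1.12), used here for values per library. Whether both mates, strand or reads in shared exons were counted is not given in the sources used here, and 73.4% to 77.4% of counts from 1 to 20 were even numbers.

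Symbols came from GENCODE annotation on GRCm38 for 55141 of 55487 genes. Counts were tested with edgeR 4.0.16 (R 4.3.3; filterByExpr, TMM, robust quasi-likelihood fit of 4 group means, 19581 genes, Benjamini-Hochberg adjustment), and the script was tested on simulated data. RPKM used TMM-scaled totals and merged exon length, and shared sequence was the share of 50-base runs found in other genes. Alternatives were DESeq2 1.42.0, upper quartile scaling, 2 other filters, the adjusted p alone, a fit of the groups compared, a replicate block, halved counts, each library left out, and other lengths. Named genes were the 4 largest called changes in each direction of each pairwise comparison (mean of at least 1 CPM in the higher group), the 4 largest interactions, and the most abundant member of each family. For each list of cosubstrate, transporter and regulator genes, at most 4 of the largest called changes in a region were named, and Gss, Gclm, Ahr and Nfe2l2, named beyond that rule, were chosen after their values were seen. Members, lists and tests were chosen with earlier results of these data known. No protein sequences were used here. Replicates differed beyond counting noise, with a mean chi-square per gene of 17.9 to 107 within crypt groups and 2.75 to 5.96 within monolayer groups. Within a region, crypt libraries came from separate mice, and monolayer libraries came from pooled wells. SI and LI crypt libraries may share mice, and such a pairing was not part of the main fit. The small spread between monolayer libraries may therefore not measure that between mice or separate cultures.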

Additional observations from a re-analysis of the deposited data

Results flagged for a closer look

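The change on culture differed between the regions, by edgeR's test of the interaction (log2 fold change in SI minus that in LI), for 34 members, and each is given with that value. Among the sulfotransferases they were Sult1a1 (10.31), Sult1c2 (3.69), Sult1d1 (1.32), Sult1b1 (1.06), Sult4a1 (-1.35) and Sult2b1 (-1.77). The alpha and mu class genes were Gsta3 (9.63), Gsta1 (3.02), Gsta4 (2.45), Gsta2 (1.07), Gstm1 (6.73), Gstm3 (4.95), Gstm7 (4.74), Gstm2 (3.70), Gstm6 (3.52), Gstm4 (3.27) and Gstm5 (1.98). Other glutathione transferases were Gstt2 (1.83), Gstt1 (1.77), Gstt3 (1.21), Gstp3 (1.81), Gstp2 (1.52), Gstk1 (1.73), Mgst1 (4.48) and Mgst2 (3.08). The glucuronosyltransferases were Ugt2b5 (6.89), Ugt2b35 (5.67), Ugt2b38 (4.16), Ugt2b36 (3.67), Ugt2b34 (2.06), Ugt1a6b (5.25), Ugt1a6a (2.86), Ugt1a8 (2.07) and Ugt1a7c (2.04).

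Gsta3, Gstm1, Gstm3 and Gstm4 passed the test in opposite directions in the 2 regions, Gstm4 in SI only just (1.04, and 0.96 without SI crypt replicate 3). Gsta1, Gsta2 and Gsta4 rose in both and differed in size, the difference for Gsta2 being lost with halved counts or without LI crypt replicate 1 or 2 or SI crypt replicate 2. Those of Ugt1a8, Ugt2b38, Sult1b1 and Sult4a1 were likewise lost on leaving out single libraries, as given above. That of Ugt1a6b rests on few counts, with 1, 2 and 1 in LI monolayers. No cause of these differences was tested.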

How the results depend on the processing

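Without a minimum fold change 28 members were called in SI culture in place of 16 (59.6% of all genes were), and 34 between crypts in place of 15 (53.9% of all genes). With at least 10 counts required in every library, which left 33 members, 13 were called in SI culture, 28 in LI culture, 9 between crypts, 25 between monolayers and 27 for the interaction. Leaving out each library in turn gave 14 to 16 called members in SI culture, 36 to 38 in LI culture, 14 to 16 between crypts, 32 to 33 between monolayers and 31 to 35 for the interaction. Of the values of the 27 named members under all alternatives, 2559 kept their direction and side of the threshold, 44 passed it only under the alternative, 27 no longer passed it and 17 changed sign, none of these 17 being a called value.

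The changes of sign in SI culture were Gstm2 at -0.011 with at least 10 counts in every library, and Ugt2b34 at 0.0029 without the filter and 0.025 with only the 2 groups. Leaving out 1 library gave log2 fold changes in SI culture of -0.073 to 0.33 for Gstm2, -0.070 to 0.37 for Sult1c2, -0.30 to 0.060 for Sult4a1 and -0.068 to 0.089 for Ugt2b34, of -0.13 to 0.042 for Mgst1 between crypts, and an interaction of -1.34 to 0.22 for Sult6b2.

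Replicate numbers showed no pairing, since deviations of same-numbered libraries correlated between -0.052 and 0.056. A pairing in another order, by mice shared between the regions, was not tested. With the replicate block, 15, 37, 15, 34 and 33 members were called in SI culture, LI culture, crypts, monolayers and the interaction. Library totals differed by up to 1.29-fold, and members with few counts, where 3 counts are 0.0391 to 0.0525 CPM, are the least certain. Counts halved, since both mates of a pair may have been counted, gave 16, 36, 15, 33 and 33.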

Other observations

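Sult1a1 had no count in SI monolayer replicate 3, while replicates 1 and 2 had 57 and 53 counts in libraries of similar total. The 3 SI crypt libraries had 65.9, 53.2 and 64.5 normalized counts of it. The cause was not tested.

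LI crypt replicate 2 stood above the other LI crypts for several Ugt2b genes. Ugt2b5 had 583, 1842 and 690 counts, Ugt2b36 47, 172 and 67, and Ugt2b38 7.52, 29.3 and 8.93 normalized counts, whereas Ugt2b34 and Ugt2b35, with 30662, 35987 and 36114 and 2336, 2812 and 2657, did not show such a gap.

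Among the members that did not pass the filter, summed counts over the 12 libraries were 13 for Gstt4, 14 for Sult1c1, 14 for Sult5a1, 13 for Ugt1a10, 3 for Ugt2a1 and 35 for Ugt2b37.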
